A study of Mus musculus with 9 samples.

Results

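The 42 cell cycle and DNA replication genes described here were chosen by symbol, as 16 regulators of G1, 10 replication genes and 16 genes of mitosis, and each had a row among the 23238 symbols counted. Transcripts were counted by sequencing their 3′ ends in gastrocnemius, a muscle of the calf, from female C57BL/6 mice, an inbred strain. Mice of the RP group had 4 intraperitoneal doses of 3 mg/kg cisplatin, an anticancer drug whose platinum binds DNA, together with 100 mg/kg RP by mouth over 9 days, and the series title names an extract of the peony Paeonia lactiflora. Mice of the Cisplatin group had the same injections and distilled water by mouth over 9 days, and Normal mice received saline injections and water. Each group held 3 libraries. The age given is 4 weeks, which was the age at purchase, before 7 days of acclimation. No group had RP without cisplatin. The labels do not say that each library came from its own mouse. The p-values set group differences against the spread between these libraries, which may be technical.

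A cell commits to division in G1. Cyclin D with CDK4 or CDK6, and then cyclin E with CDK2, phosphorylate the pocket proteins encoded by Rb1, Rbl1 and Rbl2, which otherwise hold E2F factors inactive or turn them into repressors. Free E2F switches on genes of the MCM helicase, of the sliding clamp and of deoxynucleotide synthesis, and genes of mitosis follow through promoter elements bound by B-MYB, FOXM1 and NF-Y. Nuclei of mature muscle fibres have left the cell cycle, and satellite cells, the stem cells of muscle, are among the cells in the tissue that can divide.

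Library totals were 9178613 to 9826089 counts in RP, 8352397 to 10678342 in Cisplatin and 8196030 to 8677236 in Normal. Levels are CPM, counts per library scaled to a common total, with TMM, which corrects library size for differences in composition, and folds are edgeR's log2 estimates ± SE. A gene was called, and is said to have risen or fallen, at a Benjamini-Hochberg adjusted p under 0.05 over the 12859 genes that passed a filter on low counts. The median log2 fold change of all genes tested was -0.08 in Cisplatin against Normal, 0.07 in RP against Cisplatin and -0.01 in RP against Normal. Scaled by library size alone the same medians were -0.15, 0.21 and 0.06.

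Over all genes tested 54.5% were called in Cisplatin against Normal, 48.8% in RP against Cisplatin and 0.505% in RP against Normal. The 10 markers of muscle fibres were detected in each group. Of these 5 fell and 0 rose in Cisplatin against Normal, 5 rose and 0 fell in RP against Cisplatin, and their sums were 125575 to 142654 CPM per library in RP, 86980.0 to 116966 in Cisplatin and 124566 to 138123 in Normal. Markers of other cells moved with the groups as well. The 8 fibroblast markers, of which 8 fell in Cisplatin against Normal and 8 rose in RP against Cisplatin, summed to 3173 to 4962 CPM per library in RP, 507 to 1075 in Cisplatin and 4795 to 7192 in Normal. The 8 macrophage markers, of which 7 fell and 1 rose in Cisplatin against Normal, and 5 rose and 1 fell in RP against Cisplatin, summed to 103 to 161 CPM per library in RP, 44.4 to 82.6 in Cisplatin and 202 to 249 in Normal. Of 8 erythroid markers 5 were tested and 5 fell in both Cisplatin and RP against Normal, with sums of 64.9 to 410.4 CPM per library in RP, 34 to 60.4 in Cisplatin and 4159.7 to 8993 in Normal, and Hemgn was at 0 in RP and in Cisplatin, where Slc4a1 was at 0 too. The 8 endothelial markers (1 rose and 4 fell in Cisplatin against Normal) summed to 296 to 421 CPM per library in RP, 239.8 to 328 in Cisplatin and 346 to 398 in Normal, and the 9 satellite cell and myoblast markers (2 rose and 2 fell) to 929 to 1366 CPM per library in RP, 1414 to 1572 in Cisplatin and 865 to 987 in Normal. Des, which muscle fibres also express, made up most of that last sum, at a mean of 1065 CPM in RP, 1428 CPM in Cisplatin and 840.5 CPM in Normal. Des and Myog rose in Cisplatin against Normal, whereas Myf5 and Myod1 fell, and the satellite cell gene Pax7 was not called, at a mean of 1.81 CPM in RP, 1.01 CPM in Cisplatin and 1.87 CPM in Normal. In RP against Cisplatin Myf5 (log2 fold change 2.09, adjusted p = 0.00279) and Myod1 (1.04, adjusted p = 0.00456) rose. Des and Myog fell there, and Pax7 was not called. Of the endothelial markers 2 rose and 1 fell in RP against Cisplatin. Neutrophil markers summed to 4.17 to 11.3 CPM per library in RP, 9.76 to 66.7 in Cisplatin and 3.35 to 47.5 in Normal, with Mpo and Elane at 0 in RP and Cisplatin. Of the 3 neutrophil markers tested, 1 (Retnlg) rose in Cisplatin against Normal (log2 fold change 3.79, adjusted p = 0.000481), and 3 fell in RP against Cisplatin. S100a8 (1.11) and S100a9 (-0.09) were not called in Cisplatin against Normal. Camp and Ngp, below the filter, were highest in Normal, so the list did not share a direction. Camp had 3 counts in RP, 5 in Cisplatin and 52 in Normal, and Ngp had 3, 5 and 41. Normal 2 had only 0 and 1 of them. For S100a8 and S100a9 the RP and Cisplatin groups overlapped. Cisplatin 3 had 4.04 and 2.97 CPM of them, within the 1.19 to 7.13 and 2.38 to 6.05 CPM of the RP libraries. Lymphocyte markers, of which 0 were tested, summed to 0.706 to 1.96 CPM per library in RP, 0.285 to 0.587 in Cisplatin and 1.09 to 2.89 in Normal, with Cd3e, Cd3g, Cd79a and Nkg7 among those at 0 in Cisplatin. The part of these cells in the results below was not tested, and fewer cells of a type and less RNA per cell cannot be told apart in bulk tissue.

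Of the 42 genes 29 passed the filter. Cisplatin muscle differed from Normal muscle in both directions: 8 genes rose, 10 fell and 11 were not called. The called share, 62.1% of the 29, stood beside 54.5% of all genes tested, of which 26.3% rose and 28.2% fell, and the median log2 fold change of the 29 was -0.10. In RP against Cisplatin 6 genes rose, 7 fell and 16 were not called, and with library size scaling 7 rose and 5 fell. The called share was 44.8% beside 48.8% of all genes (24.6% rose and 24.2% fell), with a median of 0.07. In RP against Normal 0 of the 29 were called by edgeR, beside 0.505% of all genes (0.187% rose and 0.319% fell). These comparisons share libraries, so each is given by its own values. Groups did not overlap for 20 of the 29 genes in Cisplatin against Normal, for 17 in RP against Cisplatin and for 4 in RP against Normal, beside 62.2%, 56.8% and 19.2% of all genes. The number of cell cycle genes that changed was thus close to that of the transcriptome, and what follows is which of them moved, which way, and by how much.

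**Figure D1:**
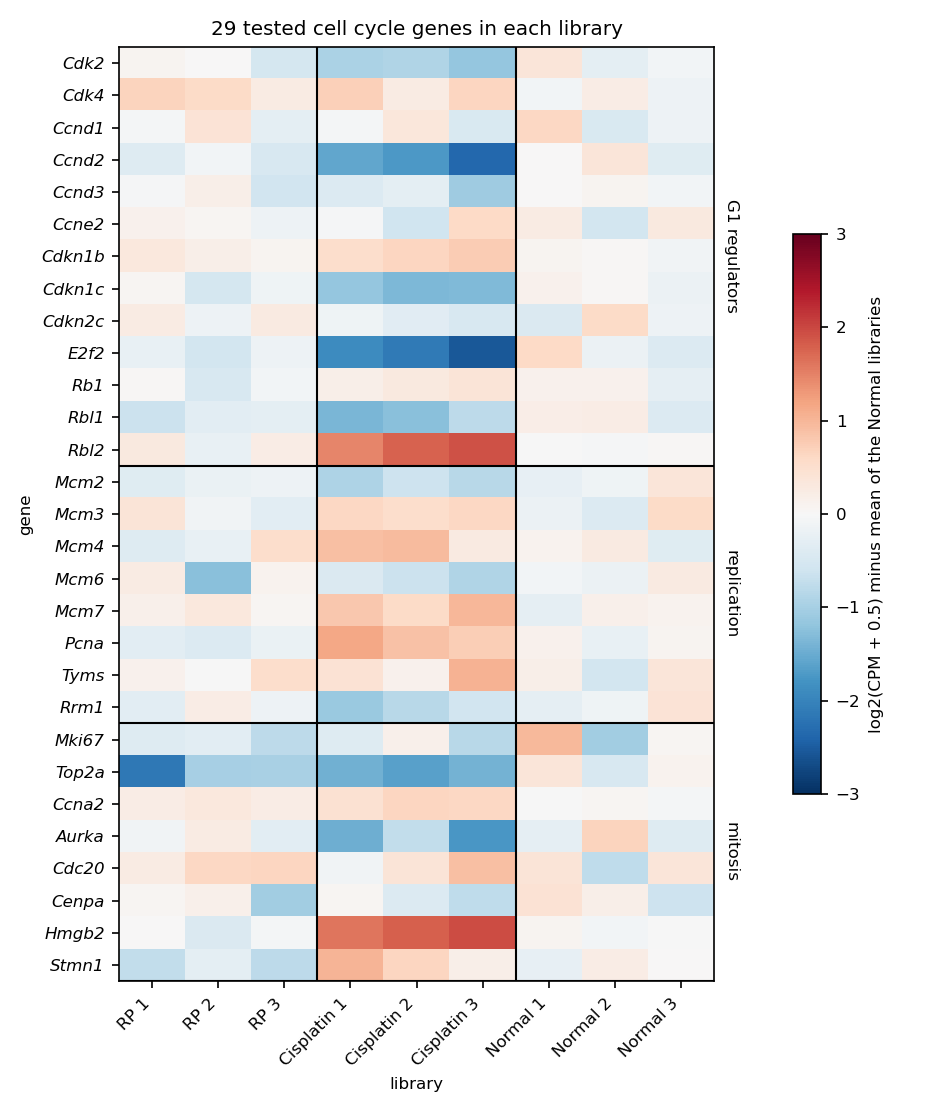
Level of the 29 tested genes (rows, by role) in each of the 9 libraries (columns), as log2(CPM + 0.5) minus the mean of the 3 Normal libraries, with red above and blue below Normal. The Cisplatin columns hold both the reddest rows (Rbl2, Hmgb2) and the bluest (E2f2, Ccnd2), and Top2a is blue in both the RP and the Cisplatin columns.

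Among the G1 regulators 13 of 16 were tested. Cisplatin muscle had 3 of them raised and 6 lowered against Normal, at a median log2 fold change of -0.40, and RP muscle had 4 raised and 3 lowered against Cisplatin, at a median of 0.45. The called shares were 69.2% and 53.8%, beside 54.5% and 48.8% of all genes. Genes are located on GRCm38 by GENCODE M21. The transcription factor E2f2 (chr4:136172394-136196057) had 5.58, 4.37 and 5.85 CPM in the RP libraries, 1.41, 1.14 and 0.714 CPM in Cisplatin and 10.3, 5.78 and 4.81 CPM in Normal. The 3 Cisplatin libraries lay below both other groups, which overlapped each other. E2f2 fell in Cisplatin against Normal (log2 fold change -2.66 ± 0.40, adjusted p = 8.63e-05) and rose in RP against Cisplatin (2.26 ± 0.40, adjusted p = 0.000425). Cyclin D2, encoded by Ccnd2 (chr6:127125162-127152193), had 64.7, 80.1 and 61 CPM in the RP libraries, 28.4, 25.5 and 16.2 CPM in Cisplatin and 85.4, 110.3 and 66.1 CPM in Normal. Here too each Cisplatin library was below each RP and each Normal library. Ccnd2 fell in Cisplatin against Normal (log2 fold change -1.90 ± 0.22, adjusted p = 1.19e-05) and rose in RP against Cisplatin (1.55 ± 0.22, adjusted p = 8.62e-05). Of the other D cyclins, Ccnd1 averaged 26.9 ± 6.88 CPM in RP, 25.6 ± 7.22 CPM in Cisplatin and 27.4 ± 11.3 CPM in Normal (SD, n = 3 each) and was called in no comparison, and Ccnd3 averaged 25.9 ± 6.7 CPM in RP, 18.9 ± 5.14 CPM in Cisplatin and 28.1 ± 1.69 CPM in Normal. Ccnd3 fell in Cisplatin against Normal (-0.57 ± 0.22, adjusted p = 0.0458), a call lost under 8 of 18 alternatives (adjusted p 0.00988 to 0.186), among them leaving out Cisplatin 3, where the log2 fold change was -0.34.

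The pocket protein genes moved in opposite directions. Rbl2, which encodes p130, the pocket protein of quiescent cells, had 88.4, 62.2 and 83.9 CPM in the RP libraries, 201, 246 and 275 CPM in Cisplatin and 72, 70.8 and 74.1 CPM in Normal. The Cisplatin libraries were all above the others, while RP spanned the narrow range of Normal, and Aktip, which overlaps Rbl2 on the other strand, moved the same way. Rbl2 rose in Cisplatin against Normal (log2 fold change 1.73 ± 0.16, adjusted p = 1.36e-06) and fell in RP against Cisplatin (-1.62 ± 0.16, adjusted p = 3.67e-06). Rbl1 (chr2:157145893-157204534), which encodes p107, had 1.86, 2.48 and 2.52 CPM in the RP libraries, 0.94, 1.05 and 1.67 CPM in Cisplatin and 3.74, 3.82 and 2.29 CPM in Normal. Cisplatin was below Normal in every library, and the lowest RP library lay just above the highest Cisplatin library. Rbl1 fell in Cisplatin against Normal (-1.43 ± 0.43, adjusted p = 0.0127) and was not called in RP against Cisplatin (0.91 ± 0.44, adjusted p = 0.0988). Rb1, the retinoblastoma gene itself, averaged 16.8 ± 3.11 CPM in RP, 23.2 ± 1.68 CPM in Cisplatin and 19 ± 2.91 CPM in Normal (SD, n = 3 each). It was not called in Cisplatin against Normal (0.28 ± 0.18, adjusted p = 0.202) and fell in RP against Cisplatin (-0.47 ± 0.18, adjusted p = 0.0472), a call lost under 13 of 18 alternatives (adjusted p 0.0374 to 0.19), including leaving out RP 2 or RP 3 or any 1 Cisplatin library.

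The inhibitors of cyclin-dependent kinases also parted. Cdkn1c (chr7:143458339-143461050), which encodes p57, had 80.7, 54.1 and 70.9 CPM in the RP libraries, 34.5, 30.2 and 30.9 CPM in Cisplatin and 85.5, 80.4 and 68.9 CPM in Normal. The Cisplatin libraries were close together and below all others. Cdkn1c fell in Cisplatin against Normal (log2 fold change -1.30 ± 0.16, adjusted p = 1.85e-05) and rose in RP against Cisplatin (1.10 ± 0.16, adjusted p = 9.49e-05). Cdkn1b (chr6:134920401-134925513), which encodes p27, had 86.4, 77.5 and 72.5 CPM in the RP libraries, 99.3, 108 and 117 CPM in Cisplatin and 72.7, 70.5 and 64 CPM in Normal. Its Cisplatin libraries were above all others. Cdkn1b rose in Cisplatin against Normal (0.65 ± 0.13, adjusted p = 0.000695) and fell in RP against Cisplatin (-0.46 ± 0.13, adjusted p = 0.00819), and the second call was lost with library size scaling (adjusted p = 0.0502, over a range of 0.0028 to 0.0502). Cdkn2c, which encodes the CDK4 and CDK6 inhibitor p18, averaged 7.03 ± 1.18 CPM in RP, 5.03 ± 0.682 CPM in Cisplatin and 6.65 ± 2.7 CPM in Normal and was called in no comparison.

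Of the kinases of G1, Cdk2 and Cdk4 were tested. Cdk2 (chr10:128697939-128705031), the partner of cyclins E and A, had 4.65, 4.37 and 2.83 CPM in the RP libraries, 2.0, 2.09 and 1.67 CPM in Cisplatin and 5.68, 3.47 and 4.09 CPM in Normal, and the Cisplatin libraries lay below both other groups. Cdk2 fell in Cisplatin against Normal (-1.19 ± 0.36, adjusted p = 0.0124), a call lost without Normal 1 (adjusted p = 0.0671, range 0.0101 to 0.0671), and rose in RP against Cisplatin (1.03 ± 0.36, adjusted p = 0.0282). The second call was lost when RP 1, RP 2 or any 1 Cisplatin library was left out and with limma-voom (range 0.0174 to 0.0928). Cdk4 (chr10:127063534-127067920), the partner of D cyclins, had 15, 13.9 and 10.9 CPM in the RP libraries, 15.3, 11 and 14.5 CPM in Cisplatin and 8.7, 10.9 and 8.18 CPM in Normal. RP and Cisplatin overlapped, and the lowest library of each lay just above the highest Normal library. Cdk4 rose in Cisplatin against Normal (0.55 ± 0.21, adjusted p = 0.0413), which was lost under 11 of 18 alternatives (range 0.0244 to 0.124), among them leaving out Cisplatin 1, Cisplatin 3, Normal 1, Normal 3 or RP 2. Cyclin E2, from Ccne2, averaged 21.9 ± 2.3 CPM in RP, 22.9 ± 9.58 CPM in Cisplatin and 22.5 ± 6.75 CPM in Normal and was called in no comparison.

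**Figure D2:**
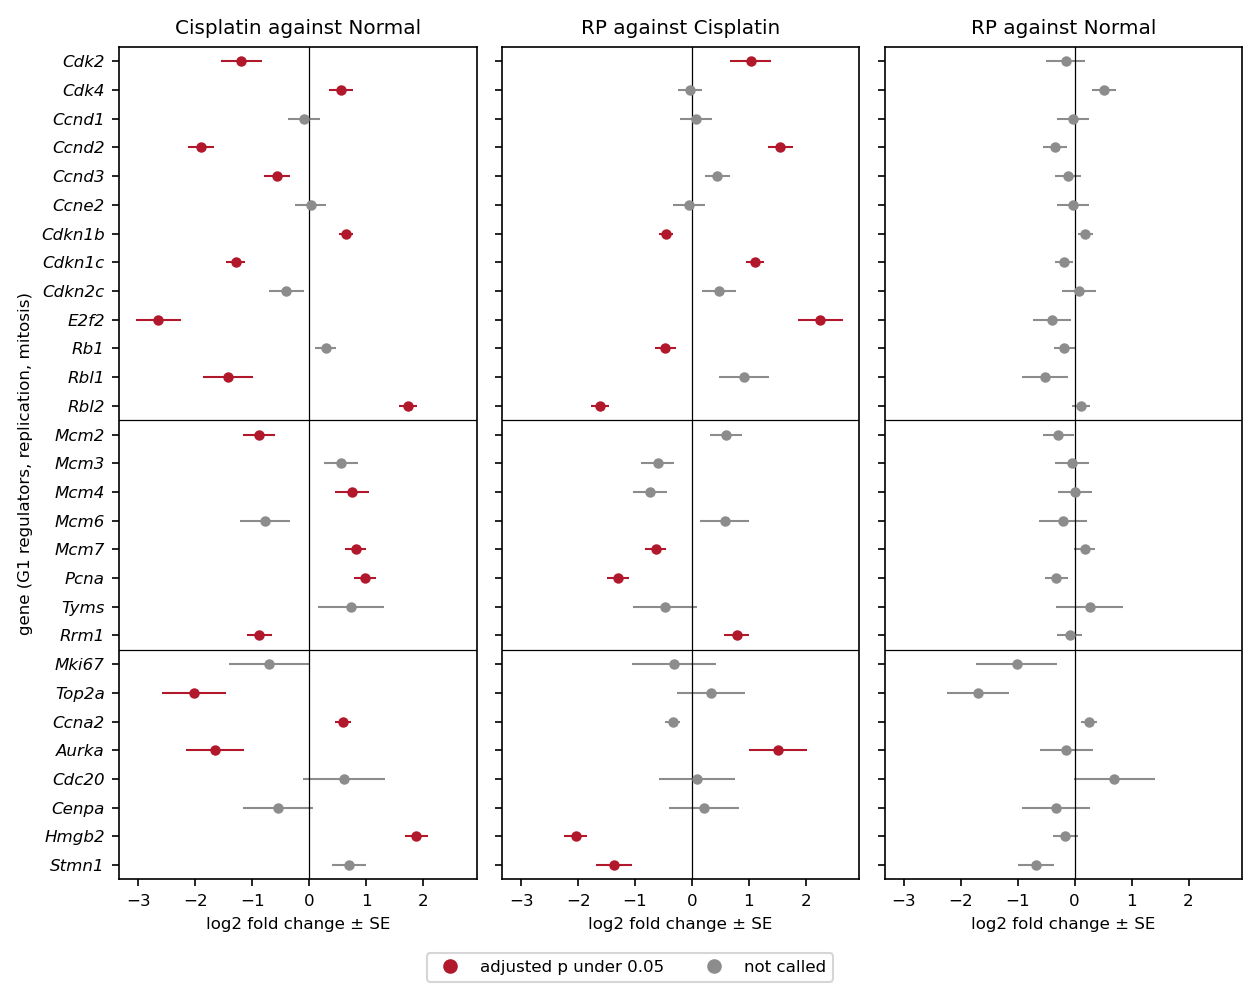
Log2 fold change ± SE (x axis) of the 29 tested genes (rows, by role) in the 3 comparisons, red where the adjusted p was under 0.05 and grey where the gene was not called. Cisplatin against Normal has 18 red points on both sides of 0, RP against Cisplatin 13, and RP against Normal 0.

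Promoters of E2f2 and Rbl2, the G1 genes at the opposite ends of these fold changes, are shown with matches to 3 motifs in capitals. The motifs searched, on both strands, were the CHR (TTTGAA), the element bound by the MuvB complex in genes of G2 and mitosis, CCAAT, the box bound by NF-Y, and the E2F site (TTCCCGC or TTGGCGC). A match on the other strand is printed as its reverse complement, so that a CHR there reads TTCAAA and a CCAAT box reads ATTGG. Sequences are those of RefSeq on GRCm38.p6, from 250 bases before to 50 after a start, and RefSeq had 36 such promoters for 32 of the 42 genes. The E2f2 start shown (chr4:136172024-136172323, plus strand) held 1 CCAAT and 1 E2F match. A second E2f2 start (chr4:136180532-136180831, plus strand) held 1 CHR, 3 CCAAT and 0 E2F matches. That of Rbl2 (chr8:91069807-91070106, plus strand) held 1 CHR match.
E2f2: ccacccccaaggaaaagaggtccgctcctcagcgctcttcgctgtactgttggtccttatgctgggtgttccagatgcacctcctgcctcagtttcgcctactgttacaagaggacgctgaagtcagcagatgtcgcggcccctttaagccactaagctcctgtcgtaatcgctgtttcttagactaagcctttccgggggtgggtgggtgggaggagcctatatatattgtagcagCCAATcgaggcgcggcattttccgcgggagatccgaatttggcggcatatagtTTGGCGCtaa
Rbl2: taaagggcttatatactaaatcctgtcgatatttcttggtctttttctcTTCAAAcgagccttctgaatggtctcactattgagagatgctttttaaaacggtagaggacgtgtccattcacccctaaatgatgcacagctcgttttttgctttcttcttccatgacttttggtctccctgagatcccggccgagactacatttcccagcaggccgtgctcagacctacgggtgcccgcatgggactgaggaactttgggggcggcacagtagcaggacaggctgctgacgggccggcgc

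Among the replication genes 8 of 10 were tested. Of these 3 rose and 2 fell in Cisplatin against Normal, at a median log2 fold change of 0.64, and 1 rose and 2 fell in RP against Cisplatin, at a median of -0.54. The called shares were 62.5% and 37.5%, beside 54.5% and 48.8% of all genes. The count that fell in Cisplatin against Normal was 1 without Cisplatin 1 or without Normal 3. Pcna (chr2:132249162-132253314), which encodes the sliding clamp that holds DNA polymerases on their template and serves in repair synthesis, had 7.65, 7.15 and 8.37 CPM in the RP libraries, 22.3, 18.2 and 16.5 CPM in Cisplatin and 10.6, 8.21 and 10.2 CPM in Normal. Every Cisplatin library lay above every RP and Normal library. Pcna rose in Cisplatin against Normal (log2 fold change 0.97 ± 0.20, adjusted p = 0.000883) and fell in RP against Cisplatin (-1.30 ± 0.20, adjusted p = 0.000134). Rrm1 (chr7:102441695-102469771), the large subunit of the reductase that makes deoxynucleotides, went the other way, with 23.1, 34.2 and 26.1 CPM in the RP libraries, 13, 16 and 19.3 CPM in Cisplatin and 23.9, 26.5 and 38.4 CPM in Normal. Its highest Cisplatin library was below the lowest of the other groups. Rrm1 fell in Cisplatin against Normal (-0.88 ± 0.22, adjusted p = 0.00398) and rose in RP against Cisplatin (0.79 ± 0.22, adjusted p = 0.00883).

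The subunits of the MCM helicase, which unwinds DNA as a single complex, did not share a direction. Mcm7 had 15.6, 17.5 and 14.4 CPM in the RP libraries, 24.9, 21 and 28.2 CPM in Cisplatin and 11.5, 15.6 and 15 CPM in Normal, with all Cisplatin libraries on top. Mcm7 rose in Cisplatin against Normal (0.81 ± 0.18, adjusted p = 0.00189) and fell in RP against Cisplatin (-0.64 ± 0.18, adjusted p = 0.00939). Mcm2 (chr6:88883474-88898780) had 4.96, 5.56 and 5.75 CPM in the RP libraries, 3.17, 4.09 and 3.45 CPM in Cisplatin and 5.44, 5.9 and 8.54 CPM in Normal, with all Cisplatin libraries at the bottom. Mcm2 fell in Cisplatin against Normal (-0.88 ± 0.28, adjusted p = 0.0162), a call lost without Cisplatin 1 or Normal 3 (adjusted p = 0.0518 and 0.0989, over a range of 0.010 to 0.0989), and was not called in RP against Cisplatin (0.60 ± 0.28, adjusted p = 0.0924). Mcm4 (chr16:15623897-15637400) had 5.17, 5.86 and 10.3 CPM in the RP libraries, 13.4, 13.8 and 8.45 CPM in Cisplatin and 7.49, 8.44 and 5.29 CPM in Normal, where RP 3 and Cisplatin 3 stood apart from the others of their groups. Mcm4 rose in Cisplatin against Normal (0.75 ± 0.30, adjusted p = 0.0492), lost under 8 of 18 alternatives (range 0.020 to 0.157), among them leaving out Cisplatin 1, Cisplatin 2, Normal 1, Normal 3 or RP 2. In RP against Cisplatin Mcm4 was not called (-0.74 ± 0.30, adjusted p = 0.0537), and it was called without RP 3 or without Cisplatin 3 (adjusted p = 0.00957 and 0.0234, range 0.00957 to 0.184). Mcm3 averaged 6.39 ± 1.78 CPM in RP, 9.69 ± 0.413 CPM in Cisplatin and 6.6 ± 2.66 CPM in Normal and Mcm6 averaged 3.53 ± 1.87 CPM in RP, 2.37 ± 0.458 CPM in Cisplatin and 4.05 ± 0.778 CPM in Normal (SD, n = 3 each). Neither was called in any comparison, although Mcm3 was called in Cisplatin against Normal without Normal 3 (log2 fold change 0.94, adjusted p = 0.018, range 0.018 to 0.352). Tyms, which encodes thymidylate synthase, averaged 1.15 ± 0.325 CPM in RP, 1.61 ± 0.689 CPM in Cisplatin and 0.958 ± 0.445 CPM in Normal and was not called.

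Promoters of Pcna and Rrm1 are shown because these genes moved apart. The Pcna promoter (chr2:132253131-132253430, minus strand) held 1 CCAAT match, and that of Rrm1 (chr7:102441445-102441744, plus strand) held 2 CCAAT matches and 1 E2F match, in capitals. Of 10 promoters of 9 replication genes, 90% held CCAAT, 60% an E2F match and 10% a CHR match, beside 37.4%, 6.81% and 17.9% of all 32851 promoters.
Pcna: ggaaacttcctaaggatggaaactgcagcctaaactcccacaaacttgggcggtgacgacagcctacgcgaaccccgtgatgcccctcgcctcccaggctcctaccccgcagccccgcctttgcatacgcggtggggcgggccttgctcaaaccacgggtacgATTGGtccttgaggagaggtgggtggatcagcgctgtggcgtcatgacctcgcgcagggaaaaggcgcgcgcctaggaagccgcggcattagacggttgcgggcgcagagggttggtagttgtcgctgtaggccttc
Rrm1: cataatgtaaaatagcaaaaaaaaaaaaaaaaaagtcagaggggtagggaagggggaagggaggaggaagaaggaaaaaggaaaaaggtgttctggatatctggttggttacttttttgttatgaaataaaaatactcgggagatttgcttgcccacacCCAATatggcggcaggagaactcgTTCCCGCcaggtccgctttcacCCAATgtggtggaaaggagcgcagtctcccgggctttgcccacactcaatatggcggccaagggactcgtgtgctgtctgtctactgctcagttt

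Among the genes of mitosis 8 of 16 were tested. Cisplatin muscle had 2 raised and 2 lowered against Normal, at a median log2 fold change of 0.02, and RP muscle had 1 raised and 2 lowered against Cisplatin, at a median of -0.11. Hmgb2 (chr8:57511907-57515999), which encodes a chromatin protein that bends DNA and is abundant in dividing cells, had 5.79, 4.17 and 5.55 CPM in the RP libraries, 18.7, 21.3 and 24 CPM in Cisplatin and 6.16, 5.43 and 5.78 CPM in Normal. The Cisplatin libraries stood well above the other groups, which overlapped each other. Hmgb2 rose in Cisplatin against Normal (log2 fold change 1.88 ± 0.21, adjusted p = 7.06e-06) and fell in RP against Cisplatin (-2.04 ± 0.21, adjusted p = 5.22e-06). Ccna2, which encodes cyclin A of S phase and mitosis, had 26.5, 28.2 and 26.3 CPM in the RP libraries, 31.3, 35.7 and 35.2 CPM in Cisplatin and 22.6, 23.5 and 21.9 CPM in Normal. Each of the 3 groups was apart from the others, with Cisplatin highest and Normal lowest, and Exosc9, which overlaps Ccna2 on the other strand, was highest in Cisplatin as well. Ccna2 rose in Cisplatin against Normal (0.59 ± 0.13, adjusted p = 0.00224) and was not called in RP against Cisplatin (-0.34 ± 0.13, adjusted p = 0.0503), where 4 of 18 alternatives called it (range 0.0419 to 0.276), leaving out Cisplatin 1 among them.

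Top2a (chr11:98992943-99024189), the topoisomerase that untangles chromosomes before they separate, had 0.31, 1.29 and 1.31 CPM in the RP libraries, 0.823, 0.665 and 0.833 CPM in Cisplatin and 4.11, 2.08 and 3.37 CPM in Normal. Both RP and Cisplatin lay below Normal, and they overlapped each other. Top2a fell in Cisplatin against Normal (log2 fold change -2.03 ± 0.57, adjusted p = 0.00798) and was not called in RP against Cisplatin (0.33 ± 0.60, adjusted p = 0.671). Aurka (chr2:172356190-172370535), the centrosome and spindle kinase Aurora A, had 2.89, 3.87 and 2.42 CPM in the RP libraries, 0.823, 1.71 and 0.595 CPM in Cisplatin and 2.54, 5.32 and 2.29 CPM in Normal, with the Cisplatin libraries lowest. Aurka fell in Cisplatin against Normal (-1.66 ± 0.51, adjusted p = 0.0136), a call lost without Cisplatin 3 or Normal 2 (adjusted p = 0.0512 and 0.0966, range 0.00593 to 0.0966). It rose in RP against Cisplatin (1.51 ± 0.51, adjusted p = 0.0238), which was lost without RP 2, Cisplatin 1 or Cisplatin 3 (range 0.00935 to 0.0849). The count of mitosis genes that fell in Cisplatin against Normal was then 1, and of those that rose in RP against Cisplatin 0.

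Stmn1 (chr4:134468320-134473843), which encodes stathmin, a protein that takes microtubules apart, had 2.69, 3.87 and 2.62 CPM in the RP libraries, 10.3, 7.89 and 5.59 CPM in Cisplatin and 3.99, 5.78 and 4.93 CPM in Normal. RP was below both other groups, and the lowest Cisplatin library overlapped Normal. Stmn1 fell in RP against Cisplatin (-1.37 ± 0.31, adjusted p = 0.00255) and was not called in Cisplatin against Normal (0.69 ± 0.30, adjusted p = 0.0667), although it was without Cisplatin 3 (log2 fold change 0.90, adjusted p = 0.0269, range 0.0269 to 0.263). The proliferation antigen Mki67 had 0.827, 0.894 and 0.504 CPM in the RP libraries, 0.823, 1.43 and 0.476 CPM in Cisplatin and 2.9, 0.347 and 1.32 CPM in Normal. Normal 1 was well above the other Normal libraries, and Mki67 was called in no comparison. Cdc20, which activates the ubiquitin ligase that starts anaphase, averaged 0.975 ± 0.218 CPM in RP, 0.918 ± 0.482 CPM in Cisplatin and 0.601 ± 0.42 CPM in Normal and Cenpa, the histone variant of centromeres, averaged 1.32 ± 0.705 CPM in RP, 1.13 ± 0.472 CPM in Cisplatin and 1.66 ± 0.744 CPM in Normal (SD, n = 3 each), and neither was called.

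Promoters of Hmgb2 and Top2a are shown because both carry the paired CHR and CCAAT elements while their transcripts moved apart in Cisplatin against Normal. That of Hmgb2 (chr8:57511593-57511892, plus strand) held 2 CHR and 4 CCAAT matches, and that of Top2a (chr11:99024140-99024439, minus strand) held 2 CHR and 6 CCAAT matches. Of 12 promoters of 12 mitosis genes 75% held a CHR, 91.7% CCAAT and 25% an E2F match, and of 14 promoters of 11 G1 genes 14.3%, 42.9% and 21.4% did. Overlapping matches occurred in Ccnb1, Mcm3 and Mcm7. A match describes the letters of this window and is not evidence of binding.
Hmgb2: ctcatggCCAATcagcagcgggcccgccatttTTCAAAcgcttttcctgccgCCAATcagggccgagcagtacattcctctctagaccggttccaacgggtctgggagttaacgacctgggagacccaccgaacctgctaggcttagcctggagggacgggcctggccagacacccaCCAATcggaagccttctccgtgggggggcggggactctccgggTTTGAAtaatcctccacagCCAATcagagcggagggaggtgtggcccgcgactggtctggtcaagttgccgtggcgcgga
Top2a: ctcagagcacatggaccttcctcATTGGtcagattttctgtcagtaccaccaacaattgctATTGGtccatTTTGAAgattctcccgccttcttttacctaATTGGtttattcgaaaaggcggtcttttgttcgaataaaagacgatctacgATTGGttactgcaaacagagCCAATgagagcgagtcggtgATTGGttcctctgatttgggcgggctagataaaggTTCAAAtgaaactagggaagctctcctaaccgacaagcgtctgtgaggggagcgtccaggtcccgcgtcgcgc

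**Figure D3:**
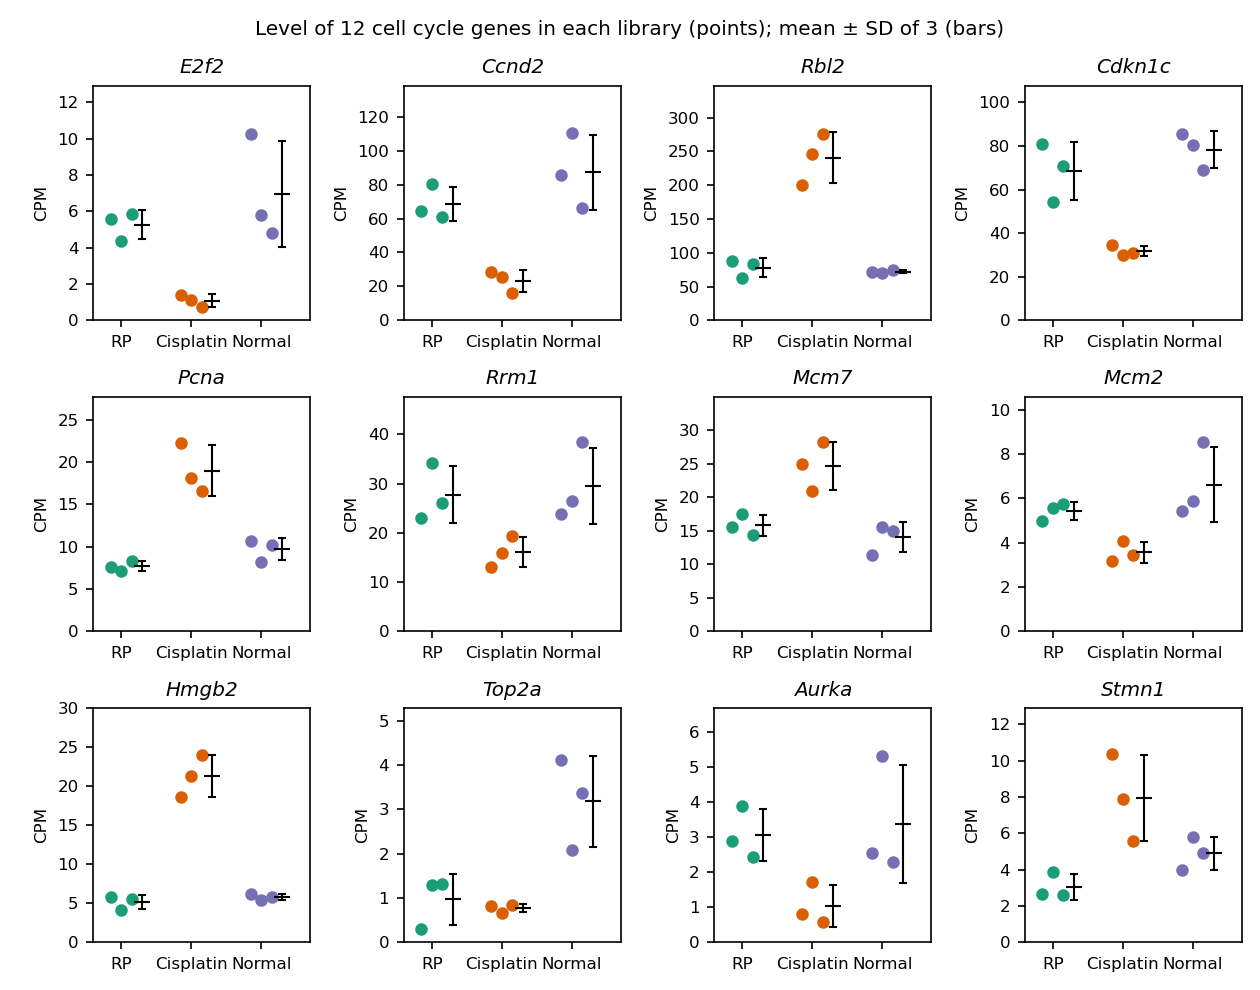
Level (CPM, y axis from 0) of 12 cell cycle genes in each RP, Cisplatin and Normal library (points), with the mean ± SD of 3 libraries beside them (bars). Cisplatin stands apart from RP and Normal for E2f2, Ccnd2, Rbl2, Cdkn1c, Pcna, Rrm1, Mcm7, Mcm2, Hmgb2 and Aurka, while Top2a is low in both RP and Cisplatin.

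The 13 genes that did not pass the filter included the cyclins B and the kinases Cdk1, Plk1 and Aurkb of mitosis. Counts summed over 3 libraries were 20 in RP, 10 in Cisplatin and 14 in Normal for Cdk1, the kinase that drives entry into mitosis. Its partners were lower still: Ccnb1 had 2 counts in RP, 0 in Cisplatin and 0 in Normal, and Ccnb2 had 0, 3 and 6 in the same groups. Plk1, the kinase of the spindle poles, had 0, 3 and 2 counts in the RP libraries, 2, 1 and 0 in Cisplatin, and 7, 9 and 9 in Normal. Both drug groups thus lay below Normal for Plk1 in each library, and without the filter its log2 fold change was -3.02 in Cisplatin against Normal (unadjusted p = 0.0259, adjusted p = 0.0635) and -2.47 in RP against Normal (unadjusted p = 0.0515, adjusted p = 0.475). Birc5 (survivin) had 20 counts in RP, 7 in Cisplatin and 21 in Normal, and Aurkb, which works in the same complex, had 3, 0 and 0. Bub1, of the spindle checkpoint, had 2 in RP, 0 in Cisplatin and 3 in Normal, and Foxm1, a transcription factor of mitosis genes, had 13, 4 and 3. Of the G1 genes Cdk6 had 6 counts in RP, 0 in Cisplatin and 1 in Normal, Ccne1 (cyclin E1) had 15, 11 and 18, and E2f1 had 23, 15 and 31. Of the replication genes Mcm5 had 33 counts in RP, 32 in Cisplatin and 19 in Normal, and Rrm2, the small subunit of ribonucleotide reductase, had 22, 8 and 16. A total of 3 counts over a group corresponds to 0.101 CPM in RP, 0.109 in Cisplatin and 0.119 in Normal, so genes listed at 0 may still be present below that level. With no filter edgeR called 0 of the 13 in any comparison, and Plk1 in Cisplatin against Normal was the single case with an unadjusted p under 0.05.

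**Figure D4:**
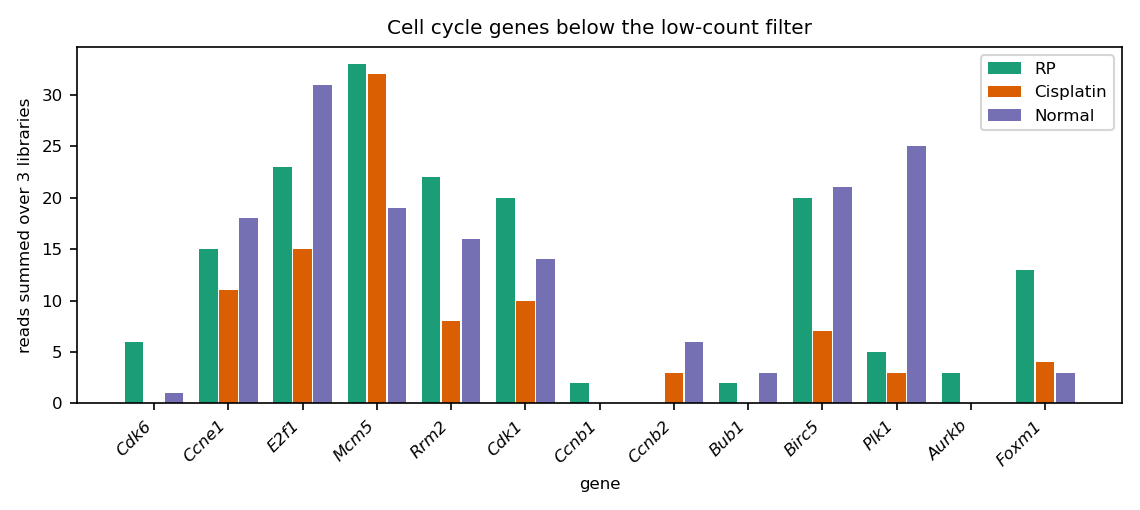
Reads summed over the 3 libraries of RP, Cisplatin and Normal (y axis from 0) for the 13 cell cycle genes below the filter on low counts. No bar exceeds 33 reads, and Cdk6, Ccnb1, Bub1 and Aurkb have 0 reads in Cisplatin.

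Tags of a 3′ library come from the end of a transcript, and 12 of the 42 genes end within 500 bases of another coding gene or inside it on GENCODE M21. The strand setting of the counting is not given in the sources used here, so reads from bases that both genes of a pair share cannot be told apart. Aurka lies 440 bases from Fam210b and Plk1 19 bases from Ern2, so these pairs share no bases. How many reads came from shared bases was not tested. Ccna2 (chr3:36564865-36572150, minus strand) overlaps Exosc9, an exosome subunit on the other strand, by 863 bases. Exosc9 had 28.3, 33.9 and 31.2 CPM in the RP libraries, 41.4, 46 and 52.6 CPM in Cisplatin and 27.7, 30.5 and 31.2 CPM in Normal, and it rose in Cisplatin against Normal (0.65 ± 0.14, adjusted p = 0.00169) and fell in RP against Cisplatin (-0.58 ± 0.14, adjusted p = 0.00392). Rbl2 (chr8:91070057-91123844, plus strand) overlaps Aktip by 12061 bases. Aktip had 105, 92.3 and 92.1 CPM in the RP libraries, 160.0, 199 and 191 CPM in Cisplatin and 102, 91.6 and 91.1 CPM in Normal, and it too rose in Cisplatin against Normal (0.95 ± 0.13, adjusted p = 3.6e-05) and fell in RP against Cisplatin (-0.93 ± 0.13, adjusted p = 5.89e-05). In both pairs the neighbour moved the same way as the cell cycle gene.

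Mcm7 (chr5:138164583-138172422, minus strand) overlaps Cops6, of the COP9 signalosome, by 64 bases. Cops6 had fold changes of the opposite sign, with 67.7, 70.1 and 69.2 CPM in the RP libraries, 55.8, 52.1 and 41.8 CPM in Cisplatin and 56.5, 57.2 and 69.7 CPM in Normal. It was not called in Cisplatin against Normal (-0.29 ± 0.14, adjusted p = 0.0971) and rose in RP against Cisplatin (0.47 ± 0.14, adjusted p = 0.0147), while Mcm7 fell there. The other tested genes with such a neighbour were Cdk4 (Tspan31), Ccnd1 (LTO1), Ccnd3 (Bysl), Ccne2 (Ints8), Rb1 (Rcbtb2), Cdc20 (Elovl1) and Aurka (Fam210b). E2f2, Ccnd2, Cdkn1b, Cdkn1c, Rbl1, Pcna, Rrm1, Mcm2, Top2a, Hmgb2 and Stmn1 had no coding gene within that distance of their ends.

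**Figure D5:**
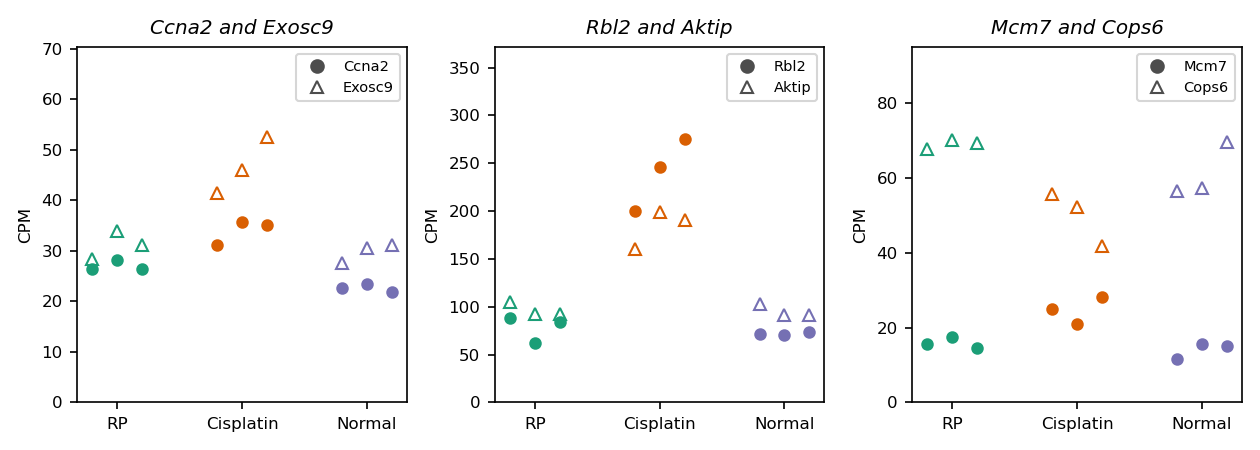
Level (CPM, y axis from 0) of 3 cell cycle genes (filled circles) and of the gene at their 3′ end on the other strand (open triangles) in each RP, Cisplatin and Normal library. Exosc9 and Aktip are highest in Cisplatin as Ccna2 and Rbl2 are, and Cops6 is lowest in Cisplatin where Mcm7 is highest.

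RP and Normal muscle were set side by side with the same fit. For 0 of the 29 genes was the difference called by edgeR, DESeq2 or limma-voom, and each of these tools had 2 genes at an unadjusted p under 0.05. Top2a was lower in each RP library than in each Normal library (log2 fold change -1.69 ± 0.55, adjusted p = 0.203, unadjusted p = 0.008). Cdk4 was higher in each RP library, at 0.52 ± 0.21, adjusted p = 0.328 (unadjusted p = 0.029). Ccna2 (0.25 ± 0.14, adjusted p = 0.459) and Stmn1 (-0.68 ± 0.32, adjusted p = 0.398) were the other genes whose groups did not overlap. For E2f2 the log2 difference between RP and Normal was -0.40 ± 0.34, adjusted p = 0.665, for Ccnd2 -0.35 ± 0.21, adjusted p = 0.531, for Pcna -0.33 ± 0.20, adjusted p = 0.535 and for Hmgb2 -0.16 ± 0.22, adjusted p = 0.811. A p above the threshold does not show that RP and Normal had the same level.

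Genes that act beside the 42 were read from wider lists. Of 28 further genes of G1 control 22 were tested, and 7 rose and 6 fell in Cisplatin against Normal (59.1% called), 6 rose and 5 fell in RP against Cisplatin, and 1 rose in RP against Normal. The first of these counts was 4 without Normal 2. In RP against Cisplatin the count that fell was 2 without RP 1 or without Cisplatin 1, and 3 without RP 2. The gene that rose in RP against Normal was Cdkn1a, which encodes the CDK inhibitor p21. It had 196, 117 and 209 CPM in the RP libraries, 1263, 1449 and 1439 CPM in Cisplatin and 26.8, 41.1 and 35.7 CPM in Normal. The 3 groups did not overlap. Cdkn1a rose in Cisplatin against Normal (log2 fold change 5.32 ± 0.25, adjusted p = 1.74e-08), fell in RP against Cisplatin (-2.99 ± 0.22, adjusted p = 3.8e-07) and was above Normal in RP (2.33 ± 0.22, adjusted p = 0.000385). The partners of E2F moved apart as the pocket proteins did. Tfdp2 averaged 91.4 ± 22.1 CPM in RP, 455 ± 65.6 CPM in Cisplatin and 74.9 ± 10.4 CPM in Normal and rose in Cisplatin against Normal (2.60 ± 0.19, adjusted p = 2.36e-07), and Tfdp1 averaged 13.2 ± 1.45 CPM in RP, 4.86 ± 0.687 CPM in Cisplatin and 13.1 ± 1.83 CPM in Normal and fell (-1.43 ± 0.21, adjusted p = 9.28e-05). In RP against Cisplatin Tfdp2 fell (-2.32 ± 0.19, adjusted p = 8.89e-07) and Tfdp1 rose (1.45 ± 0.21, adjusted p = 0.000108). Ccng1 (cyclin G1) averaged 429.9 ± 25.8 CPM in RP, 199.96 ± 14.5 CPM in Cisplatin and 470.2 ± 26.8 CPM in Normal and fell in Cisplatin against Normal (-1.23 ± 0.12, adjusted p = 2.85e-06), as did Ccnh, the cyclin of the CDK-activating kinase, with 28 ± 1.9 CPM in RP, 15.1 ± 1.35 CPM in Cisplatin and 33.6 ± 2.71 CPM in Normal (-1.15 ± 0.15, adjusted p = 2.42e-05). In RP against Cisplatin Ccng1 (1.10 ± 0.12, adjusted p = 1.12e-05) and Ccnh (0.89 ± 0.15, adjusted p = 0.000259) rose.

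Of 44 further replication genes 38 were tested, and 8 rose and 6 fell in Cisplatin against Normal (36.8% called, beside 54.5% of all genes). In RP against Cisplatin 5 rose and 11 fell (42.1% called, beside 48.8%). In RP against Normal edgeR called 0, beside 0.505%, with 3 at an unadjusted p under 0.05. The 6 that fell were 2 without Cisplatin 1 or Normal 3, and 3 without Normal 1 or Normal 2, and the 5 that rose in RP against Cisplatin were 2 without RP 1 and 3 without RP 3, Cisplatin 1 or Cisplatin 3. Those that rose in Cisplatin against Normal were Orc2, Orc3 and Orc5 of the origin recognition complex, Gins1, the polymerase subunits Pold2 and Pole, Rpa2 and Rrm2b, a subunit of ribonucleotide reductase. Pola1, Pold1, Rfc2, Lig1 and Dut were among those that fell. Pold2 averaged 13.5 ± 0.427 CPM in RP, 29 ± 5.35 CPM in Cisplatin and 11.2 ± 0.916 CPM in Normal (Cisplatin against Normal 1.38 ± 0.18, adjusted p = 2.53e-05, RP against Cisplatin -1.10 ± 0.17, adjusted p = 0.000178), and Orc2 averaged 23.8 ± 2.98 CPM in RP, 53.3 ± 8.28 CPM in Cisplatin and 22.8 ± 3.3 CPM in Normal (1.22 ± 0.17, adjusted p = 4.16e-05, then -1.16 ± 0.17, adjusted p = 8.32e-05). Orc5 averaged 10.3 ± 0.721 CPM in RP, 23.1 ± 4.72 CPM in Cisplatin and 10.9 ± 1.55 CPM in Normal (1.08 ± 0.20, adjusted p = 0.000451, then -1.17 ± 0.20, adjusted p = 0.000314). Dut, the dUTPase that keeps uracil out of DNA, averaged 8.49 ± 1.0 CPM in RP, 2.75 ± 0.515 CPM in Cisplatin and 10.1 ± 2.27 CPM in Normal and moved the other way (-1.88 ± 0.27, adjusted p = 6.09e-05, then 1.63 ± 0.27, adjusted p = 0.000259).

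Of 48 further mitosis genes 21 were tested, and 6 rose and 9 fell in Cisplatin against Normal (71.4% called, beside 54.5% of all genes). In RP against Cisplatin 3 rose and 6 fell (42.9% called, beside 48.8%). In RP against Normal edgeR called 0, beside 0.505%, with 6 at an unadjusted p under 0.05. DESeq2 (adjusted p = 0.0325) and edgeR with no filter (adjusted p = 0.0423) each called 1, Ckap2. In the reported edgeR fit its log2 fold change in RP against Normal was 2.18, adjusted p = 0.0849. The 9 that fell were Nusap1, Kif23, Cenpf, Mad2l1, Anln, Racgap1, Cdc25b, Smc2 and Wee1, and their count was 4 without Normal 1 and 5 without Normal 2 or Cisplatin 3. The 3 that rose in RP against Cisplatin were 1 without RP 1, RP 2, Cisplatin 2 or Cisplatin 3. Bub3, Spc24, Spc25, Pttg1, Ckap2 and Smc4 rose in Cisplatin against Normal. Pttg1, which encodes securin, averaged 238 ± 23.4 CPM in RP, 498 ± 77.8 CPM in Cisplatin and 192 ± 9.57 CPM in Normal (1.37 ± 0.14, adjusted p = 4.11e-06) and fell in RP against Cisplatin (-1.06 ± 0.14, adjusted p = 4.59e-05). Ckap2, a spindle protein, had 1.45, 1.89 and 2.22 CPM in the RP libraries, 4.93, 3.61 and 4.64 CPM in Cisplatin and 0.604, 0.231 and 0.361 CPM in Normal, with each Cisplatin library above each RP library and each RP library above each Normal library. Ckap2 rose in Cisplatin against Normal (3.42 ± 0.49, adjusted p = 6.63e-05) and fell in RP against Cisplatin (-1.24 ± 0.40, adjusted p = 0.021), the second call being lost without RP 1, RP 2, Cisplatin 1 or Cisplatin 3. Spc25, of the kinetochore, averaged 0.703 ± 0.51 CPM in RP, 3.04 ± 0.594 CPM in Cisplatin and 0.514 ± 0.0554 CPM in Normal (2.53 ± 0.58, adjusted p = 0.00234, then -2.08 ± 0.55, adjusted p = 0.00653), and Bub3, of the spindle checkpoint, averaged 46.9 ± 4.77 CPM in RP, 67.7 ± 3.22 CPM in Cisplatin and 41.3 ± 5.34 CPM in Normal (0.71 ± 0.14, adjusted p = 0.000695, then -0.53 ± 0.14, adjusted p = 0.00589). Cdc25b, the phosphatase that activates CDK1, averaged 3.88 ± 0.45 CPM in RP, 2.45 ± 0.492 CPM in Cisplatin and 6.55 ± 1.39 CPM in Normal and fell in Cisplatin against Normal (-1.42 ± 0.31, adjusted p = 0.00165). Smc4, of condensin, averaged 46.8 ± 3.38 CPM in RP, 66 ± 3.01 CPM in Cisplatin and 52.3 ± 5.89 CPM in Normal and fell in RP against Cisplatin (-0.50 ± 0.13, adjusted p = 0.00644), and its rise in Cisplatin against Normal (0.34 ± 0.13, adjusted p = 0.0412) was lost under 9 of 18 alternatives.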

How the data were processed

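For each of the 9 gastrocnemius samples the authors deposited raw counts of reads by gene symbol. Per the labels' protocols, 500 ng of total RNA extracted with Trizol went into Lexogen QuantSeq 3′ libraries, which read 1 tag near the end of a transcript. Per the submitters' processing notes, Bowtie2, edgeR and the mm10 build were used. Their versions, the counter, any strand setting and the gene models were not given in the sources used here.

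From the deposited counts, 79 rows sharing 35 symbols were summed, and 5145 of 23238 symbols were at 0 throughout. Replicates differed by more than counting error (chi-square per degree of freedom 11.3 to 28.9). edgeR 4.0.16 in R 4.3.3 was run with filterByExpr, TMM scaling and glmQLFit on all 9 libraries, and glmQLFTest for 3 comparisons, with Benjamini-Hochberg adjustment over all genes tested. SEs are the estimated change over the root of its F statistic. The code of the fit was run on counts simulated from its own means and spread. Few genes were changed there, unlike in these data, so that run does not test the error rate of the calls here. Alternatives were RLE and library size scaling, other filters, no Rn45s, DESeq2 1.42.0, voom of limma 3.58.1, fits of only the compared groups, a block for replicate number, and each library left out. Members, gene lists and marker lists were chosen with earlier results of these data known. Of the called members, up to 4 per role and comparison by size of change were given in every library, with further members added. Wider list genes were named by p, up to 4 per comparison, with Cdkn1a always. Some genes of these lists are not reported here by name. Gene positions came from GENCODE M21, whose GRCm38 assembly is mm10. The floor of 3 counts in a group's sum reflects counting error alone. Figures were drawn with matplotlib 3.10.9.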

Additional observations from a re-analysis of the deposited data

How the results depend on the processing

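In Cisplatin against Normal 12 of the 18 called cell cycle genes, and in RP against Cisplatin 9 of the 13, were called under each of the 18 alternatives that tested them, and 0 of the called genes changed direction. With at least 5 CPM required in 3 libraries 20 of the 42 genes were tested, and those that fell in Cisplatin against Normal numbered 6 instead of 10, fewer low genes being tested. In RP against Cisplatin, library size scaling left 1 G1 gene that fell, and gave 2 replication genes that rose, and it left 2 of the wider G1 list that fell. In RP against Normal, where 0 cell cycle genes were called in any alternative, the count over all genes did depend on the settings. The 24 genes that rose were 123 with no filter, 103 with DESeq2, and 8 to 59 when 1 library was left out. The 41 that fell were 24 with library size scaling, 170 with no filter, 126 with DESeq2, and 14 to 62 with 1 library left out. The cause was not tested. Deviations of samples with the same replicate number correlated at 0.044, -0.057 and -0.032 in Cisplatin against Normal, at 0.014, 0.158 and 0.154 in RP against Cisplatin, and at 0.013, -0.124 and 0.022 in RP against Normal. Samples with different numbers correlated at -0.047 to 0.071, at -0.19 to 0.077 and at -0.123 to 0.115 in the same comparisons. In RP against Cisplatin the same-number values 0.158 and 0.154 were thus above every pair of different numbers. Since not every same-number pair exceeded 0.1 in any comparison, the numbers were not taken to pair samples. With the number as a replicate block, 16 of the 29 cell cycle genes were called in Cisplatin against Normal, 13 in RP against Cisplatin and 0 in RP against Normal. Depth limits the 13 genes below the filter, of which 0 were called with no filter, and the genes near 1 CPM.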

Other observations

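Ratios of 2 counts within a library do not depend on how libraries are scaled. The pairs given here were chosen after their values were seen, so they carry no test. Rbl2 over Rbl1, the genes of p130 and p107, was 47.5, 25.0 and 33.3 in the RP libraries, 213, 235 and 165 in Cisplatin, and 19.2, 18.5 and 32.4 in Normal. RP and Normal overlapped and Cisplatin stood above both. The Cisplatin ratios rest on 8, 11 and 14 counts of Rbl1, so their size is imprecise, and Rbl2 overlaps Aktip. Tfdp2 over Tfdp1, the genes of the E2F partners, was 8.20, 4.52 and 8.41 in RP, 110.0, 81.0 and 92.1 in Cisplatin, and 4.57, 7.81 and 5.29 in Normal. E2f4 over E2f2, a repressor over an activator of the E2F family, was 3.93, 4.00 and 4.09 in RP, 20.1, 21.8 and 38.2 in Cisplatin, and 1.24, 2.88 and 3.30 in Normal. The 3 groups did not overlap for this pair, whose Cisplatin ratios rest on 12, 12 and 6 counts of E2f2.

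Within the MCM helicase Mcm7 over Mcm2 was 3.15, 3.14 and 2.51 in RP, 7.85, 5.14 and 8.17 in Cisplatin, and 2.11, 2.65 and 1.76 in Normal. Cdkn1b over Cdkn1c, a pair of inhibitors of the same family, was 1.07, 1.43 and 1.02 in RP, 2.87, 3.59 and 3.79 in Cisplatin, and 0.850, 0.878 and 0.928 in Normal. Cisplatin was above the other groups for each of these pairs, and RP lay closer to Normal than to Cisplatin in each library.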
